A study of Mus musculus with 6 samples.

Results

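The 42 genes described here encode the sensors, transcription factors, chaperones and disposal machinery of the unfolded protein response in the endoplasmic reticulum (ER). They were taken from a fixed list of gene names, matched among the 55421 genes of the count tables, and all 42 were found and had enough reads for a test. The libraries were made from monocytes of the spleen of C57BL/6 mice, 3 IL-4Rα+/+ and 3 IL-4Rα-/- littermates at steady state, with 1 library per mouse. IL-4Rα is the receptor chain that binds interleukin-4, and the IL-4Rα-/- mice lack it in every cell type and not in monocytes alone. No treatment is named, and the labels state neither age nor sex of these mice. Monocytes were left behind after antibodies and magnetic beads had removed the other splenocytes, and polyadenylated RNA was sequenced.

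Proteins that are secreted or sit in membranes fold inside the ER. When unfolded chains build up there, the sensors IRE1, PERK and ATF6 raise the output of chaperones, slow translation and send misfolded chains to the proteasome. BiP, the product of *Hspa5*, binds unfolded chains and also the sensors. IRE1 splices the *Xbp1* messenger RNA, PERK acts through ATF4 and CHOP, and ATF6 is cut by proteases of the Golgi. Monocytes and macrophages draw on this response when they secrete cytokines. The comparison asks which of these genes differ in splenic monocytes that lack IL-4Rα.

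Between 26807281 and 29033297 reads per library were counted on genes. Levels are given as CPM, counts adjusted by TMM to a common library size, and 1 count stands for 0.0344 to 0.0373 CPM. The targeted gene, *Il4ra*, had 3903, 3550 and 4686 counts in IL-4Rα+/+ replicates 1, 2 and 3 and 781, 2268 and 940 in IL-4Rα-/- replicates 1, 2 and 3. Its log2 fold change was -1.67 (SE 0.41), with an adjusted p of 0.618 in edgeR and 0.0111 in DESeq2. Reads therefore remained in the knockout, most of them in replicate 2. *Xist*, expressed from the inactive X chromosome, stood at 553 CPM in IL-4Rα+/+ replicate 1 and 457 CPM in IL-4Rα-/- replicate 3, and at most at 3.73 CPM in the other 4 libraries, so 1 library per genotype differed from the rest in sex. The 15 monocyte markers summed to 20943 to 26300 CPM over the libraries. At an unadjusted p under 0.05 in edgeR, 7 of 12 red pulp macrophage and 12 of 19 erythroid markers were higher in IL-4Rα-/- mice. So were 10 of 13 basophil, mast cell and eosinophil markers and 5 of 15 neutrophil markers, beside 3.72% of all genes. At an adjusted p under 0.15, edgeR called 0 of them. DESeq2 called 0 red pulp macrophage, 3 erythroid, 4 basophil, mast cell and eosinophil and 1 neutrophil marker. The summed level of the red pulp macrophage markers was 4294, 3841 and 3741 CPM in IL-4Rα+/+ and 7622, 5301 and 4816 CPM in IL-4Rα-/- libraries. That of the erythroid markers was 223, 253 and 211 CPM against 299, 296 and 609 CPM, and that of the basophil, mast cell and eosinophil markers 128 to 248 CPM against 125 to 253 CPM. In the lists for B cells, T and NK cells, dendritic cells and megakaryocytes, 0 genes reached an unadjusted p under 0.05 in edgeR and 0 were called by DESeq2. The part of other cells in the results below was not tested. In such bulk samples, fewer cells of a type and less RNA per cell cannot be told apart.

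The chaperone genes are known for a short promoter sequence, the ER stress response element (ERSE), where ATF6 binds beside NF-Y. Promoter windows from 250 bases before to 50 bases after the start site, from RefSeq on GRCm38.p6, were at hand for 35 of the 42 genes. The letters CCAAT, 9 bases of any kind and CCACG, searched on both strands, were present in 9 of these 35 genes and in 0.119% of the 32851 mouse promoter windows. The shorter ERSE-II, ATTGG and CCACG with 1 base of any kind between them, was present in *Dnajb11* and *Herpud1*, and in 0.0365% of all windows. These elements were first described on genes of this kind, so the counts describe the list and are no test. They are shown beside a pattern across libraries that is given further on. That pattern held in 9 of the 11 genes with an ERSE or ERSE-II, and also in 16 of the 24 with neither. Fixed letters of the element are in capitals, and each is read 5′ to 3′ on the strand of its gene, so an element in the opposite orientation starts with CGTGG:
Hspa5 (chr2:34772020-34772048, plus strand): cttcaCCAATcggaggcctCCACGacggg
Hsp90b1, farther element (chr10:86705633-86705661, minus strand): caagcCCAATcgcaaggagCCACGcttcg
Hsp90b1, nearer element (chr10:86705528-86705556, minus strand): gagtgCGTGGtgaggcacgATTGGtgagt
Dnajc3 (chr14:118937822-118937850, plus strand): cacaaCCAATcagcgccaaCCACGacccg
Creld2 (chr15:88819515-88819543, plus strand): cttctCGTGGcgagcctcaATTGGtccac
Calr (chr8:84847070-84847098, minus strand): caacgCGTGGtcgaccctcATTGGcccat
Canx (chr11:50325795-50325823, minus strand): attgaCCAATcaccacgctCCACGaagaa
Pdia6 (chr12:17266486-17266514, plus strand): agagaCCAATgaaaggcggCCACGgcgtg
Syvn1 (chr19:6046527-6046555, plus strand): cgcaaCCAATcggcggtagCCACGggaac
Derl3 (chr10:75893237-75893265, plus strand): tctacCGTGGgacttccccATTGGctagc
Herpud1, ERSE-II (chr8:94386372-94386392, plus strand): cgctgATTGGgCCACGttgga

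The matches lay between 212 bases before the start site, in *Hsp90b1*, and 18 bases after it, in *Dnajb11*. The shorter core of the unfolded protein response element, ACGTGG, is read by XBP1 and ATF6 and was present in 8 of the 35 genes, beside 8.31% of all windows. In *Herpud1* it shared bases with the ERSE-II. Start sites are those of RefSeq, and Gencode begins *Hspa5* farther upstream, so that its element lies within the gene annotated there. The ATF4 element TGATGNAAT, present in 0.965% of all windows, and the STAT6 letters TTC and GAA with 4 bases between them, present in 6.95%, were found in 0 of the 35 genes. STAT6 is the factor that the IL-4 receptor activates, and a window without these letters says nothing of its binding elsewhere.

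**Figure D1:**
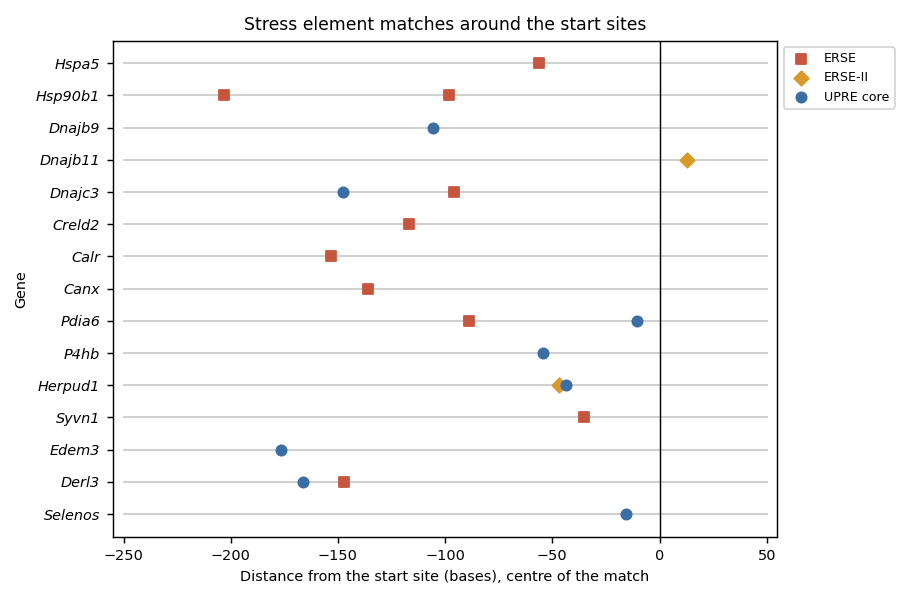
Positions of the stress element matches in the promoter windows of the 15 genes that hold one. The horizontal axis is the distance from the start site in bases, squares are ERSE, diamonds ERSE-II and circles the UPRE core, and 14 of the 15 genes have their matches before the start site, with *Dnajb11* after it.

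Over the whole list, none of the 42 genes (0) passed edgeR's quasi-likelihood test at an adjusted p under 0.15, the study's threshold, where 0% of the 13849 genes tested passed. At an unadjusted p under 0.05 in edgeR, 2 members were lower in IL-4Rα-/- monocytes, *Ern1* and *Eif2ak3*, and 0 were higher. That is 4.76% of the members lower, beside 4.37% of all genes lower and 3.72% of all genes higher, so the share was near the background. DESeq2 passed 1 member at the same adjusted threshold, *Ern1*, with 0.293% of its 14003 genes called lower and 0.279% called higher. In 3 members no library of one genotype reached into the range of the other, with *Ern1* and *Eif2ak3* lower and *Derl3* higher. These 3 are 7.14% of the members, while 15.5% of all genes did not overlap, 7.87% lower and 7.63% higher.

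The typical member differed little. Comparing IL-4Rα-/- with IL-4Rα+/+, the log2 fold change was below 0 in 20 and above 0 in 22 members, with a median of 0.005 beside 0.008 over all genes tested. It was smaller than 0.25 in size in 38 of the 42. The 95% interval of the fold change spanned 0 in 40 members and lay within 1 log2 unit of 0 in 39, but within 0.5 in only 19. In the other members the interval reached past 0.5 log2 units from 0.

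**Figure D2:**
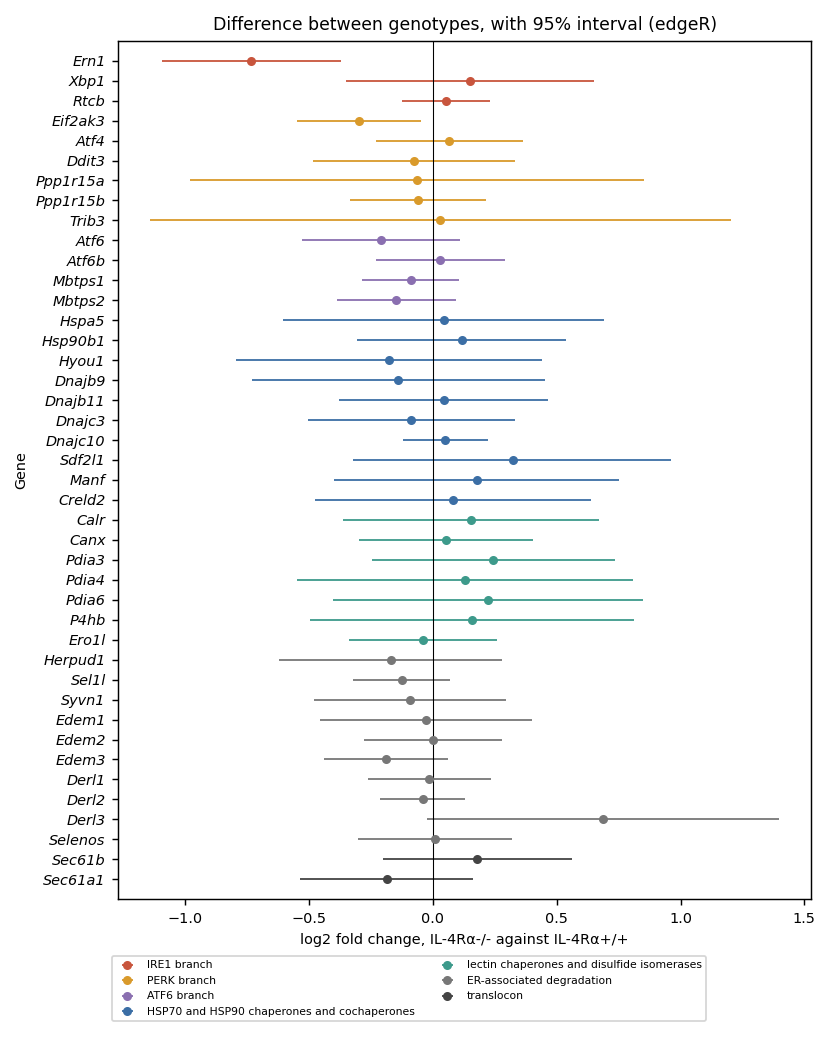
log2 fold change of each of the 42 genes, IL-4Rα-/- against IL-4Rα+/+, with its 95% interval from edgeR, coloured by role. The intervals of *Ern1* and *Eif2ak3* lie below 0, and that of *Derl3* reaches from -0.02 to 1.40.

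In the IRE1 branch the sensor itself stood out. *Ern1* (ENSMUSG00000020715.9) encodes IRE1, the kinase and RNase of the ER membrane, and lies on the minus strand of GRCm38 chr11:106394650-106487852, with no other annotated gene overlapping it. It had 188, 216 and 177 CPM in IL-4Rα+/+ replicates 1, 2 and 3, and 108, 142 and 100.2 CPM in IL-4Rα-/- replicates 1, 2 and 3. Every IL-4Rα-/- library was below every IL-4Rα+/+ library, and the highest knockout value came from replicate 2. The means were 194 ± 20.1 CPM and 117 ± 22.2 CPM (SD, n = 3 each), so that IL-4Rα-/- monocytes held 60.2% of the IL-4Rα+/+ level. The log2 fold change was -0.73 (SE 0.15, 95% interval -1.09 to -0.37), with an unadjusted p of 0.00214 and an adjusted p of 0.618 in edgeR. In all, 23 genes had a smaller unadjusted p. The two-sided exact permutation test gave p = 0.10, the smallest that 3 against 3 libraries allow.

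DESeq2 gave *Ern1* an adjusted p of 0.0205, and this call did not hold under every setting. With the trend of counts with transcript length removed from each library, the DESeq2 log2 fold change was -0.64 and the adjusted p 0.232. The longest transcript of *Ern1*, the length used in that step, has 6946 bases. The call was also lost without IL-4Rα+/+ replicate 2 (adjusted p 0.341) or without IL-4Rα-/- replicate 1 (adjusted p 0.388), and it held without each of the other 4 libraries, with adjusted p-values between 1.57e-06 and 0.115. Its direction and an unadjusted p under 0.05 were the same in all 23 settings, that reported here included, with log2 fold changes between -0.90 and -0.63.

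The bases before the start of *Ern1* are shown because it is the member with the largest difference. Upstream of both the RefSeq and the Gencode start, at chr11:106487853-106488046 of GRCm38.p6 on the minus strand, 64.4% of the 194 bases are G or C and none of the elements searched was found, so no letters are in capitals:
Ern1: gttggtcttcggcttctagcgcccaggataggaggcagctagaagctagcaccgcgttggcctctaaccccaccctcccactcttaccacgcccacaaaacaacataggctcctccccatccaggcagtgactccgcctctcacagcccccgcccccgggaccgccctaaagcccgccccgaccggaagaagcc

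*Xbp1* (ENSMUSG00000020484.19), on the plus strand of chr11:5520659-5525893, encodes the transcription factor that IRE1 activates by splicing. Its level was 360, 353 and 410 CPM in IL-4Rα+/+ and 355, 564 and 328 CPM in IL-4Rα-/- replicates 1, 2 and 3. The genotypes overlapped, and the highest value was that of IL-4Rα-/- replicate 2. On the log2 scale the fold change was 0.15 (SE 0.21, 95% interval -0.35 to 0.65), with an adjusted p of 0.824 in edgeR, and it turned to -0.13 without IL-4Rα-/- replicate 2. Counts per gene do not separate the spliced from the unspliced *Xbp1* message. *Rtcb*, the ligase that joins the ends of *Xbp1* after the cut, stood between 138 and 154 CPM in all libraries, with a log2 fold change of 0.05 (SE 0.07). Of 7 other messages known as substrates of IRE1-dependent decay that had enough reads, 5 had a fold change above 0 and 2 below 0, with a median of 0.06, and *Blvrb*, biliverdin reductase B, was higher at an unadjusted p under 0.05. It had 59.0, 60.4 and 52.2 CPM in IL-4Rα+/+ and 92.1, 68.1 and 71.4 CPM in IL-4Rα-/- libraries, with an adjusted p of 0.618 in edgeR. At the unadjusted threshold 3.72% of all genes were higher. Whether IRE1 or other cells had a part in the *Blvrb* values was not tested.

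**Figure D3:**
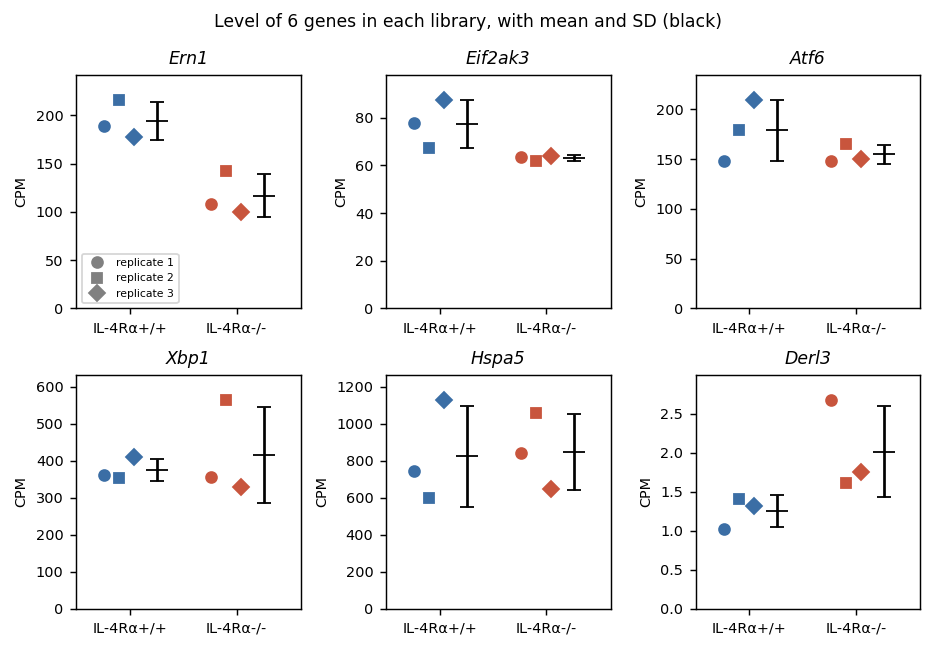
Level in CPM of *Ern1*, *Eif2ak3*, *Atf6*, *Xbp1*, *Hspa5* and *Derl3* in each of the 6 libraries, with symbols for the replicate number and the mean with SD in black. The genotypes separate for *Ern1*, *Eif2ak3* and *Derl3* and overlap for *Atf6*, *Xbp1* and *Hspa5*.

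In the PERK branch, 4 of 6 members had a fold change below 0, and 1, *Eif2ak3*, reached an unadjusted p under 0.05 in edgeR. Over the whole list 4.76% of members were lower at that threshold, near the 4.37% of all genes. *Eif2ak3* (ENSMUSG00000031668.14, plus strand, chr6:70844515-70905245) encodes PERK, which phosphorylates the initiation factor eIF2α and so slows translation. It had 77.6, 67.4 and 87.5 CPM in IL-4Rα+/+ and 63.4, 61.7 and 64.1 CPM in IL-4Rα-/- replicates 1, 2 and 3. All 3 knockout values were below the lowest IL-4Rα+/+ value. The log2 fold change was -0.30 (SE 0.10, 95% interval -0.55 to -0.05), with an unadjusted p of 0.0257 and an adjusted p of 0.618 in edgeR. When single libraries were left out, the unadjusted p stayed under 0.05 only without IL-4Rα+/+ replicate 2 (0.00535), and it lay between 0.0582 and 0.0717 without each of the other 5. Of its exon bases, 8.05% are shared with the antisense gene *Gm43292*, which had at most 0.143 CPM.

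In the other 5 members of the PERK branch the genotypes overlapped. *Atf4*, the factor whose translation PERK signaling raises, had a log2 fold change of 0.07 (SE 0.12), and *Ddit3*, which encodes CHOP, -0.08 (SE 0.17). *Ppp1r15a* and *Ppp1r15b* encode the subunits that direct the phosphatase back to eIF2α, and their log2 fold changes were -0.06 (SE 0.38) and -0.06 (SE 0.11). The wide error of *Ppp1r15a*, an early stress gene, came with 52.4, 34.1 and 102 CPM in the IL-4Rα+/+ libraries. *Trib3*, a pseudokinase induced by CHOP, was the lowest member, with 10 to 38 counts per library, and its interval, from -1.14 to 1.20, was the widest of the list. Among 25 further ATF4 and CHOP targets with enough reads, 12 had a fold change below and 13 above 0, with a median of 0.015. *Nupr1*, a small stress-induced nuclear protein, was lower, and *Psat1*, *Phgdh* and *Shmt2*, enzymes of serine and glycine synthesis, were higher at an unadjusted p under 0.05 in edgeR, and 0 passed adjustment in edgeR or DESeq2. *Phgdh*, the first enzyme of serine synthesis, had 0.878, 1.05 and 1.44 CPM in IL-4Rα+/+ and 1.68, 2.73 and 3.59 CPM in IL-4Rα-/- libraries. *Psat1* had 18.4, 15.5 and 22.99 CPM in IL-4Rα+/+ and 24.7, 24.7 and 25.9 CPM in IL-4Rα-/- libraries. The genotypes did not overlap in both enzymes, nor in *Shmt2* and *Nupr1*. Of these targets 3 did not overlap higher and 2 lower, beside 7.63% of all genes higher and 7.87% lower. At the unadjusted threshold 3.72% of all genes were higher and 4.37% lower. Of the 19 other stress sensors, eIF2 kinases and partners of the branches that were tested, *Eif2ak4*, the kinase GCN2 that senses missing amino acids, was lower at an unadjusted p under 0.05, with 35.3, 32.9 and 30.5 against 28.8, 28.7 and 25.7 CPM (log2 fold change -0.25, SE 0.09, edgeR adjusted p 0.618).

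The third sensor overlapped between the genotypes. *Atf6* (ENSMUSG00000026663.6, minus strand, chr1:170704674-170867771) had 148, 180 and 210 CPM in IL-4Rα+/+ and 149, 166 and 150 CPM in IL-4Rα-/- replicates 1, 2 and 3. IL-4Rα+/+ replicate 1 was as low as the knockout libraries. The difference on the log2 scale was -0.21 (SE 0.13, 95% interval -0.53 to 0.11), with an unadjusted p of 0.163 and an adjusted p of 0.663 in edgeR. Without IL-4Rα+/+ replicate 1 the unadjusted p was 0.0208, and without IL-4Rα+/+ replicate 3 the fold change was -0.08. *Atf6b*, its close relative, had a log2 fold change of 0.03 (SE 0.11). *Mbtps1* and *Mbtps2*, the site-1 and site-2 proteases that release ATF6, had log2 fold changes of -0.09 (SE 0.08) and -0.15 (SE 0.10), and their libraries overlapped. *Mbtps2* shares 28.4% of its exon bases with *Yy2* on the same strand, the largest such share among the members, so part of its reads may have been left uncounted or credited to the other gene.

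The 5 most abundant members were chaperones and disulfide isomerases, whether or not IL-4Rα was present. Per kilobase of exon, the mean over the 6 libraries was 268 CPM for *Calr* (calreticulin), 198 for *Hspa5*, 189 for *Hsp90b1* (the ER paralog of HSP90), 182 for *Pdia3* and 163 for *P4hb* (both protein disulfide isomerases). *Xbp1* followed with 122 CPM per kilobase. The sensors were lower on this per-length scale, with 19.0 CPM per kilobase for *Ern1*, 18.1 for *Atf6* and 11.7 for *Eif2ak3*. Other genes of the chaperone groups were as low or lower, such as *Dnajc10* with 19.2 and *Ero1l* with 5.86. At the bottom were *Mbtps2* with 2.67, *Derl3* with 0.819 and *Trib3* with 0.377 CPM per kilobase. Neighbours among the 5 highest overlapped in their library values.

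**Figure D4:**
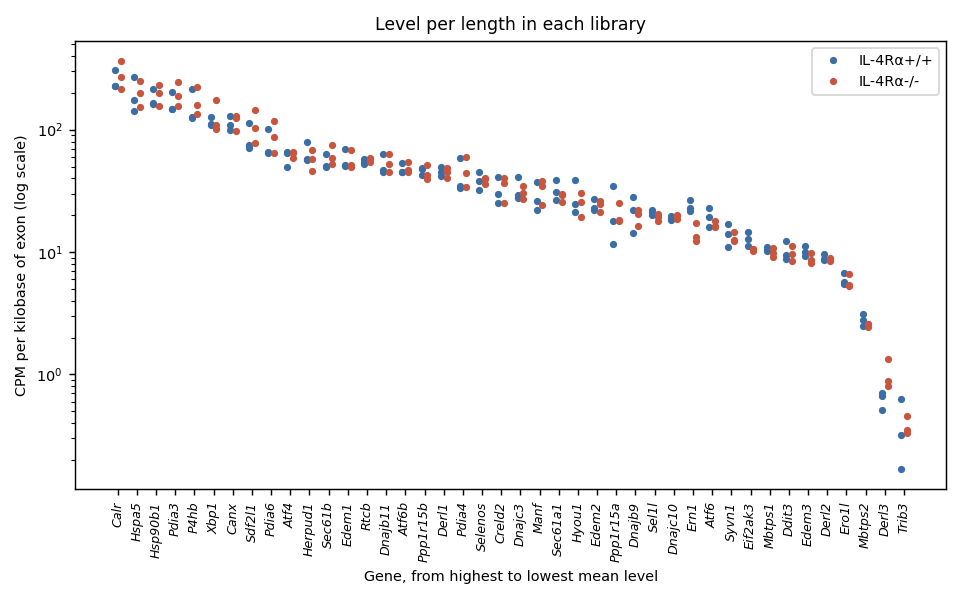
Level per length of each of the 42 genes in each library, on a log scale in CPM per kilobase of exon, ordered by the mean over 6 libraries. Blue points are IL-4Rα+/+ and red points IL-4Rα-/- libraries, and the order runs from *Calr* at 268 to *Trib3* at 0.377.

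*Hspa5* (ENSMUSG00000026864.13, plus strand, chr2:34771970-34777547) had 744, 599 and 1130 CPM in IL-4Rα+/+ and 845, 1059 and 647 CPM in IL-4Rα-/- replicates 1, 2 and 3. The genotypes overlapped over nearly their whole range, and the values within a genotype differed 1.89-fold in IL-4Rα+/+ and 1.64-fold in IL-4Rα-/- mice. The log2 fold change was 0.04 (SE 0.27, 95% interval -0.60 to 0.69), with an adjusted p of 0.964 in edgeR. It was 0.34 without IL-4Rα+/+ replicate 3 and -0.14 without IL-4Rα-/- replicate 2.

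The other 9 members of the HSP70 and HSP90 group, the chaperones and the cochaperones that drive their cycle, overlapped between genotypes as well. Their log2 fold changes ran from -0.18 (SE 0.26) for *Hyou1*, the ER member of the HSP110 family, to 0.32 (SE 0.27) for *Sdf2l1*, which keeps BiP clients soluble. *Dnajc10*, the reductase ERdj5, was the most even of them, with 90.7 to 101 CPM over all 6 libraries. In the group of lectin chaperones and disulfide isomerases, 6 of 7 had a fold change above 0 and the median was 0.15. *Pdia3* had the largest, 0.24 (SE 0.21), and *Ero1l*, the oxidase that recharges the isomerases, was the exception at -0.04 (SE 0.13). All 7 overlapped between genotypes, and their lowest unadjusted p in edgeR was 0.275. This direction hung on single libraries, since without IL-4Rα-/- replicate 2 the median was -0.07 and 1 of 7 was above 0, while without IL-4Rα+/+ replicate 3 the median was 0.42 and 7 of 7 were above 0. Among 25 other ER folding genes tested, 16 had a fold change above 0. *Sil1*, the exchange factor of BiP, was higher at an unadjusted p under 0.05 in edgeR, beside 3.72% of all genes. It had 16.2, 16.5 and 17.4 CPM in IL-4Rα+/+ and 22.1, 20.5 and 18.2 CPM in IL-4Rα-/- libraries (log2 fold change 0.28, SE 0.10, edgeR adjusted p 0.618).

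In ER-associated degradation, where misfolded chains are drawn out of the ER and ubiquitinated, 7 of 10 members had a fold change below 0 and the median was -0.03. The count below 0 was 4 without IL-4Rα+/+ replicate 3 (median 0.06), 5 without IL-4Rα-/- replicate 3 (median 0.02) and 9 without IL-4Rα-/- replicate 2 (median -0.07). *Sel1l* and *Syvn1*, the adaptor and the ubiquitin ligase at its core, had log2 fold changes of -0.13 (SE 0.08) and -0.09 (SE 0.16). *Edem3*, which trims mannose from clients, had -0.19 (SE 0.11, unadjusted edgeR p 0.116). *Herpud1*, the ligase's partner and the only member with an ERSE-II before its start site, had 185, 133 and 131 CPM in IL-4Rα+/+ and 158, 107.5 and 134 CPM in IL-4Rα-/- libraries. Unlike most members it was highest in replicate 1 of both genotypes.

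*Derl3* (ENSMUSG00000009092.5, plus strand, chr10:75893413-75895941), a Derlin of the channel for misfolded chains that is known from secretory cells, was the only member whose libraries were all higher in the knockout. It had 1.02, 1.41 and 1.32 CPM in IL-4Rα+/+ and 2.68, 1.61 and 1.76 CPM in IL-4Rα-/- replicates 1, 2 and 3, from 29 to 75 counts. The nearest values of the genotypes, 39 and 46 counts, are close, and the level was far below that of *Derl1* and *Derl2*, at 45.1 and 8.89 CPM per kilobase against 0.819. The log2 fold change was 0.69 (SE 0.30, 95% interval -0.02 to 1.40), with an unadjusted p of 0.0562 and an adjusted p of 0.618 in edgeR, and DESeq2 gave an adjusted p of 0.643. Since *Derl3* is high in plasma cells, their markers are given beside it. Of 15 plasma cell markers tested, 9 had a fold change above 0. At an unadjusted p under 0.05 in edgeR, 3 were higher, *Igha*, *Jchain* and *Iglc1*, beside 3.72% of all genes. *Igha*, the heavy chain of IgA, had 245, 232 and 268 CPM in IL-4Rα+/+ and 694, 569 and 439 CPM in IL-4Rα-/- libraries, while *Mzb1*, the ER cochaperone of plasma cells, was at 0.105 to 0.491 CPM and *Sdc1* at 1.93 to 4.74 CPM. The whole list, which includes ER genes such as *Txndc5* and *Ssr4*, summed to 1430, 1814 and 1590 CPM in IL-4Rα+/+ and 2305, 2227 and 1678 CPM in IL-4Rα-/- libraries. Its 6 markers chosen outside the ER pathway, *Igha* among them, summed to 677, 774 and 688 CPM in IL-4Rα+/+ and 1388, 1293 and 872 CPM in IL-4Rα-/- libraries. The part of plasma cells in the *Derl3* values was not tested.

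The translocon genes *Sec61b* and *Sec61a1*, subunits of the channel through which new chains enter the ER, had log2 fold changes of 0.18 (SE 0.16) and -0.19 (SE 0.15) and overlapped between genotypes. Of 20 other translocation and signal peptidase genes, 10 had a fold change below and 10 above 0. At an unadjusted p under 0.05 in edgeR, *Sec63* was lower and *Srp14* higher, beside 4.37% of all genes lower and 3.72% higher. *Sec63*, the J-domain partner of the channel, had 95.3, 103 and 111 CPM in IL-4Rα+/+ and 91.8, 90.8 and 86.0 CPM in IL-4Rα-/- libraries. *Srp14*, of the signal recognition particle, had 78.0, 78.4 and 82.3 CPM in IL-4Rα+/+ and 86.5, 93.6 and 87.9 CPM in IL-4Rα-/- libraries. Among 20 other degradation genes and 4 genes of the tRNA ligase complex, 0 reached an unadjusted p under 0.05 in edgeR, and DESeq2 called 0 of them.

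Many of these genes varied together among mice of the same genotype. The pattern was seen after the values were examined and is given as a description. IL-4Rα+/+ replicate 3 was the highest IL-4Rα+/+ library in 34 of the 42 members and IL-4Rα-/- replicate 2 the highest IL-4Rα-/- library in 32, and both held in 30 members, 71.4%, beside 24.9% of all genes tested. By role, both held in 9 of 10 HSP70 and HSP90 chaperones and cochaperones, 7 of 7 lectin chaperones and disulfide isomerases, 7 of 10 degradation genes and 1 of 6 PERK branch genes. *Ern1*, *Eif2ak3* and *Derl3* were not among them. *P4hb*, the classic disulfide isomerase, had 360, 355 and 609 CPM in IL-4Rα+/+ and 455, 641 and 383 CPM in IL-4Rα-/- replicates 1, 2 and 3. *Pdia4*, another isomerase, had 83.2, 80.3 and 141 CPM and 107, 144 and 81.7 CPM. In both genes the distance between mice of the same genotype was larger than the distance between the genotype means.

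Among the role groups, the median spread was largest in the genes that fold proteins. The median SD on the log2 scale within genotypes was 0.36 in the HSP70 and HSP90 group and 0.32 in the lectin and isomerase group, beside 0.24 over the 42 members and 0.20 over all genes tested. Single genes departed from this, with an SD of 0.69 in *Trib3* and 0.59 in *Ppp1r15a* of the PERK branch, and 0.06 in *Dnajc10*. Of the 11 genes with an ERSE or ERSE-II, 9 were highest in those libraries (81.8%), and of the 24 with a promoter window and neither element, 16 were (66.7%). Leaving out IL-4Rα+/+ replicate 3 put the fold change above 0 in 29 of the 42 members, with a median of 0.12, and leaving out IL-4Rα-/- replicate 2 put it below 0 in 32, with a median of -0.08.

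**Figure D5:**
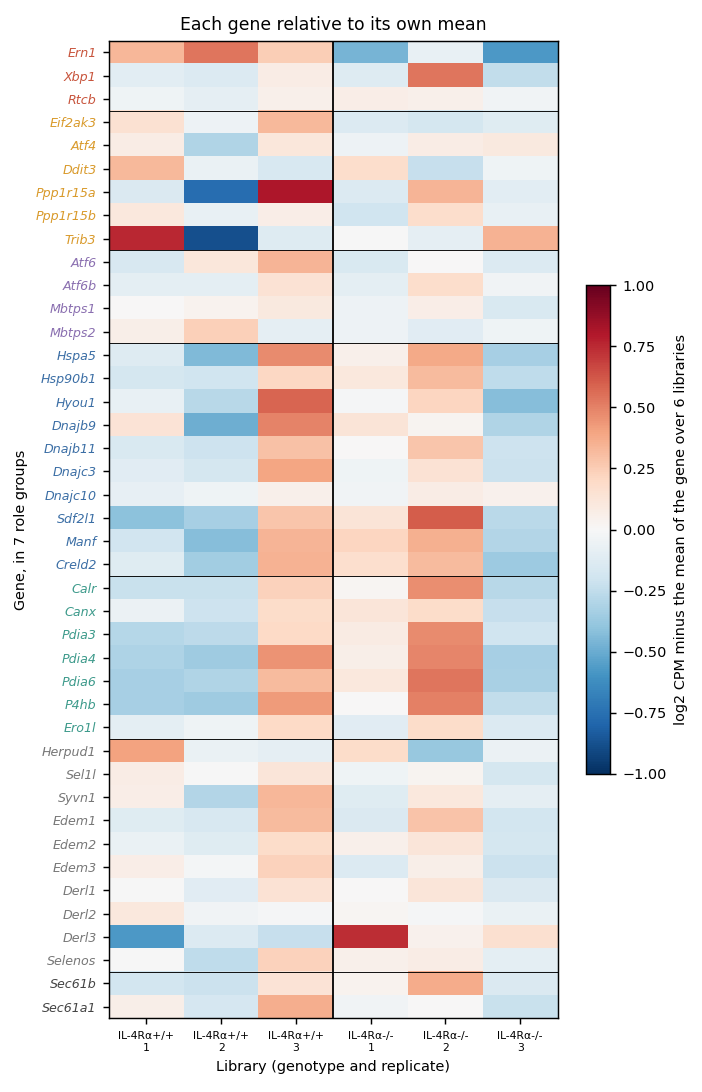
Level of each of the 42 genes in each library relative to the mean of that gene over the 6 libraries, on the log2 scale, with genes grouped by role. Columns are libraries, red is above and blue below the gene's mean, and most chaperone rows are red in IL-4Rα+/+ replicate 3 and IL-4Rα-/- replicate 2.

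Other measures were high in the same libraries. *Ccr2*, the chemokine receptor of classical monocytes, had 380, 1045 and 1668 CPM in IL-4Rα+/+ and 826, 2008 and 979 CPM in IL-4Rα-/- replicates 1, 2 and 3. *Cx3cr1*, the receptor typical of nonclassical monocytes, was lowest in each genotype in the same libraries, with 526 CPM in IL-4Rα+/+ replicate 3 and 346 CPM in IL-4Rα-/- replicate 2. The 14 stress and dissociation genes, which respond within minutes to handling of cells, summed to 3349, 2617 and 4176 CPM in IL-4Rα+/+ and 3144, 3704 and 3349 CPM in IL-4Rα-/- libraries. The neutrophil markers, of which 14 of 15 had a fold change above 0 (median 1.20), summed to 389, 431 and 742 CPM in IL-4Rα+/+ and 583, 1200 and 501 CPM in IL-4Rα-/- libraries, with *Ly6g* at no more than 0.315 CPM. Pancreatic enzyme messages were high in IL-4Rα-/- replicate 2 but not in IL-4Rα+/+ replicate 3, where their sum was the lowest. Their list summed to 65.2, 16.3 and 13.3 CPM in IL-4Rα+/+ and 55.2, 446.5 and 22.2 CPM in IL-4Rα-/- libraries. Of its 22 genes 18 were tested, and *Prss1* and *Amy2a5* were at 3 counts or fewer in every library. *Prss2* was at 0 in IL-4Rα-/- replicate 3. The pancreatic acinar cell is rich in ER. The part of these measures in the levels of the 42 genes was not tested.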

How the data were processed

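RNA of splenic monocytes from 6 mice, 3 per genotype, was sequenced from directional poly(A) libraries. The authors aligned single-end reads to GRCm38 with STAR 2.6.1a and the Gencode annotation and deposited raw counts per gene, without normalization. Which strand column was kept is not stated, so the counts of overlapping genes are uncertain. RSEM is also named in the submitters' processing notes, without a role, and DESeq2 1.22.2 was used by the authors. STAR's totals of reads not assigned to a gene were not used in any test.

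Between 26807281 and 29033297 reads per library were counted on genes. Genes were kept by filterByExpr with a minimum count of 10 (13849 genes), normalized by TMM and tested in edgeR 4.0.16 (R 4.3.3) with the quasi-likelihood test, genotype only, Benjamini-Hochberg adjustment over all genes and the threshold of 0.15 that the study used. Standard errors and 95% intervals came from that test. DESeq2 1.42.0 was the second tool. Single members were also compared by exact permutation. Symbols were found for 55154 of 55421 gene identifiers, and positions and exon lengths came from Gencode M21 on GRCm38 (55240 identifiers). Promoter sequences came from RefSeq on GRCm38.p6.

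The 42 members, the other gene lists and the tests were chosen with earlier results of these data known. Values per library are given for *Ern1*, *Xbp1*, *Eif2ak3*, *Atf6* and *Hspa5*, for members with an unadjusted p under 0.05, members without overlap and members called by DESeq2. Genes of the other lists are named at an unadjusted p under 0.05, at most 3 per list. *P4hb*, *Pdia4*, *Herpud1*, *Rtcb*, *Ccr2*, *Cx3cr1*, *Ly6g*, *Mzb1* and *Sdc1* were chosen after their values were seen. Same-numbered libraries of the genotypes had correlations of 0.185, -0.271 and -0.296 in their deviations from the group means, so the main test did not pair them. With so few libraries, these values cannot exclude that the numbers mark a shared batch. The steps were tested on simulated data for this comparison with 13619 genes, 200 of them planted with a 4-fold change. Of these, 87% were recovered by edgeR, which called 33 unplanted genes, and 90% by DESeq2, which called 107. A 4-fold change is larger than that of any member, so these rates do not cover changes of the size seen here. DESeq2, the only tool that called *Ern1*, called more of the unplanted genes. The simulated counts were drawn with edgeR's own dispersion estimates, so this does not rank the tools for the real data. Alternatives changed the normalization, filter, test, threshold and covariates, removed the trend with transcript length, or left out each library. P-values measure the spread between mice, 3 per genotype.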

Additional observations from a re-analysis of the deposited data

How the results depend on the processing

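With 3 mice per genotype, few members could be told apart from 0, and *Trib3* and *Derl3* also had few reads. The counts of members past the thresholds and the median fold change were the same or within 1.5 times, or moved by less than the spread between libraries, under RLE size factors, total count scaling, no filter, a filter of at least 1 CPM in 3 libraries, edgeR's newer dispersion estimate, *Xist* as a covariate, the removal of the length trend and an adjusted threshold of 0.05. The median ranged from -0.08 to 0.12 when libraries were left out. The replicate number was also used as a block, a pairing that the labels do not state. With this block 0 members passed, and 2 were lower and 0 higher at an unadjusted p under 0.05 in edgeR. The median was then 0.026, and the log2 fold change of *Ern1* was -0.74 (edgeR adjusted p 0.812).

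DESeq2 called 1 member, *Ern1*, in place of 0, and 0 after the length trend was removed. In edgeR, leaving out single libraries gave 1 to 2 members lower and 0 to 1 higher at an unadjusted p under 0.05. The set was not constant: beside *Ern1*, which was lower each time, it held *Atf6* without IL-4Rα+/+ replicate 1, *Eif2ak3* without IL-4Rα+/+ replicate 2, and *Edem3* (lower, -0.27) and *Derl3* (higher, 0.83) without IL-4Rα-/- replicate 2. DESeq2 without single libraries, an alternative chosen after seeing the data like its run without the length trend, called 0 to 1 members, with 1 to 2 lower and 0 to 3 higher at an unadjusted p under 0.05, and the 3 were *Sdf2l1* (0.57), *P4hb* (0.47) and *Pdia3* (0.42), without IL-4Rα+/+ replicate 3. The fold change of *Xbp1* ran from -0.13 to 0.30 over these omissions in edgeR and turned to -0.13 in DESeq2 without IL-4Rα-/- replicate 2. That of *Hspa5* ran from -0.14 to 0.34 in edgeR, with -0.14 without IL-4Rα+/+ replicate 2 and -0.025 without IL-4Rα+/+ replicate 1, and DESeq2 gave -0.025, -0.14 and -0.14 without IL-4Rα+/+ replicates 1 and 2 and IL-4Rα-/- replicate 2. With *Xist* as a covariate it was -0.002. The cause of these changes was not tested beyond the library or step left out.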

Other observations

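Chaperones outside the ER, which respond to heat shock factor and not to the ER sensors, were measured in the same libraries. Of 14 heat shock genes tested, all cytosolic or nuclear but for the mitochondrial *Hspd1* and *Hspe1*, 6 had a fold change below and 8 above 0, with a median of 0.04. *Bag3*, a cochaperone of selective autophagy, had 64.1, 41.8 and 60.9 CPM in IL-4Rα+/+ and 40.9, 33.2 and 32.9 CPM in IL-4Rα-/- replicates 1, 2 and 3. It was lower with no overlap, beside 7.87% of all genes (log2 fold change -0.64, SE 0.18, edgeR adjusted p 0.618, DESeq2 adjusted p 0.203). *Hspe1*, the mitochondrial chaperonin partner, had 49.9, 41.1 and 45.7 against 61.2, 60.2 and 48.3 CPM, with overlap (log2 fold change 0.31, SE 0.12, edgeR adjusted p 0.618). *Hspa1a*, the inducible cytosolic HSP70, varied far more between mice than any ER chaperone, with 98.5, 31.1 and 506 CPM in IL-4Rα+/+ and 120, 64.1 and 44.9 CPM in IL-4Rα-/- libraries. It was highest in IL-4Rα+/+ replicate 3, as *Hspa5* was, but not in IL-4Rα-/- replicate 2. *Hspa8*, of the same list, was highest in both of these libraries. It had 1568, 1089 and 1601 CPM in IL-4Rα+/+ and 1704, 1927 and 1227 CPM in IL-4Rα-/- replicates 1, 2 and 3. *Hsph1* and *Dnajb1* were not highest in IL-4Rα-/- replicate 2, and the heat shock genes as a list were not counted for this pattern. *Hspa1a*, *Hspa8*, *Hsph1* and *Dnajb1* were chosen after their values were seen. Reads of *Hspa1a* can be confused with those of the near-identical *Hspa1b*.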
